A study of Mus musculus with 2 samples.

Results

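Globin-rich barcodes were examined in single-cell RNA sequencing of mouse cortex. Barcodes were chosen by their globin content. A barcode was taken when 4 adult hemoglobin genes, Hbb-bs, Hbb-bt, Hba-a1 and Hba-a2, held 30% or more of its unique molecular identifiers (UMIs, each counting 1 captured transcript). It also needed at least 500 detected genes and at most 20% mitochondrial UMIs. The rule found 166 of the 12632 barcodes that passed the gene and mitochondrial limits, and 16332 barcodes were deposited in all. Of the 166, 99 came from the wild-type library and 67 from the knockout library.

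One library was made from Fam69c wild-type mice and 1 from Fam69c knockout mice, all male and 4 months old. The labels name 7 mice, whose cortices were pooled by genotype, dissociated with a brain dissociation kit, filtered, stained with the viability dye 7-AAD and sorted before droplet capture with 10x Genomics 3' chemistry. The labels do not say which part of Fam69c is deleted, whether the deletion is limited to a cell type, or whether the 7 are the animals of each pool or of both. With 1 library per genotype no test was possible, and genotype, pool and library preparation cannot be told apart. The exact 95% intervals below cover counting error only.

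Red cells are made from erythroblasts, which fill with hemoglobin, expel the nucleus and leave the bone marrow as reticulocytes. A reticulocyte has no nucleus but still holds RNA, most of it globin mRNA, which is lost as the cell matures. Hemoglobin joins alpha chains (Hba-a1 and Hba-a2), beta chains (Hbb-bs and Hbb-bt) and heme, whose first step in erythroid cells is made by the enzyme Alas2. In brain, red cells belong to the blood inside the vessels, and dissociated tissue can carry them along.

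The promoters of these genes are shown because the 4 globins chose the barcodes and Alas2 was the gene most raised with them. The mouse beta globin genes lie on chromosome 7, the alpha globin genes on chromosome 11 and Alas2 on the X chromosome. Each sequence is the 250 bases before the RefSeq start site in build GRCm38.p6, 5′ to 3′ on the gene's own strand. Capitals mark the string CACCC, the string CCAAT and the string GATAA on either strand. They are short letter strings of the kind that erythroid Krüppel-like, CCAAT-binding and GATA factors are known to recognise.
Hba-a1, chr11:32283422-32283671, plus strand: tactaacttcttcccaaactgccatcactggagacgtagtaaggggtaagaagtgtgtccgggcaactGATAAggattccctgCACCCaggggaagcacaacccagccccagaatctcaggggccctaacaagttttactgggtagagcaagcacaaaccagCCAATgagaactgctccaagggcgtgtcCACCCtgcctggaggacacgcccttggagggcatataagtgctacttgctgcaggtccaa
Hbb-bs, chr7:103827929-103828178, minus strand: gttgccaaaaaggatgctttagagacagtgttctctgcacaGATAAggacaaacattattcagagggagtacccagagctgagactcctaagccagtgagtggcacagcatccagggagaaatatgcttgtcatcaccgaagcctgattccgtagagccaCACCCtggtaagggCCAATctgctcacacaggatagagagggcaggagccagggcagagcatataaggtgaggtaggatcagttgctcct
Hbb-bt, chr7:103813924-103814173, minus strand: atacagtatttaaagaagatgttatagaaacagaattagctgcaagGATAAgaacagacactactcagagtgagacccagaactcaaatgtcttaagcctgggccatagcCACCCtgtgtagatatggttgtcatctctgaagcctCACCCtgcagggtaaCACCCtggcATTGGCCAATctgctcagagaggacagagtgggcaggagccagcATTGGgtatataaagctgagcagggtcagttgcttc
Alas2, chrX:150547167-150547416, plus strand: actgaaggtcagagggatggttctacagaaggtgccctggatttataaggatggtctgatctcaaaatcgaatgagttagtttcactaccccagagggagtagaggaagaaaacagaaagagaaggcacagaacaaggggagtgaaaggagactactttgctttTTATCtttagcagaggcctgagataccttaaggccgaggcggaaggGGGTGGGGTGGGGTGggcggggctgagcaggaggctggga
The Hba-a2 window, chr11:32296242-32296491 on the plus strand, had 0 mismatches to that of Hba-a1 over 297 aligned bases. The 3 globin windows printed here and that of Hba-a2 each hold all 3 strings, and the Alas2 window holds 3 copies of CACCC and 1 of GATAA but no CCAAT. Among all 32851 RefSeq windows of the same 250 bases, 52.0% hold CACCC, 33.8% CCAAT, 22.6% GATAA and 3.45% all 3. A match is a description of the letters and not a binding site.

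Globin-rich barcodes made up 1.92% of the wild-type barcodes that passed the limits (95% interval 1.56 to 2.33%) and 0.896% of the knockout ones (0.695 to 1.14%). The log2 ratio of knockout over wild type was -1.10 (-1.57 to -0.64). This difference depended on the minimum number of genes. Without that minimum, 478 wild-type barcodes (6.69% of all deposited, 6.12 to 7.29%) and 551 knockout barcodes (6.0%, 5.52 to 6.51%) had 30% or more globin, a log2 ratio of -0.16 (-0.34 to 0.024). Most globin-rich barcodes therefore lay outside the rule, 379 in the wild-type library (79.3%) and 484 in the knockout library (87.8%), and all of them had fewer than 500 genes and none exceeded the mitochondrial limit. They are described beside the chosen barcodes as the low-gene set, from the same libraries. It held a median of 229 genes and 96.1% globin in the wild-type library, and 211 genes and 96.5% globin in the knockout library. What set these shares was not tested.

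**Figure D1:**
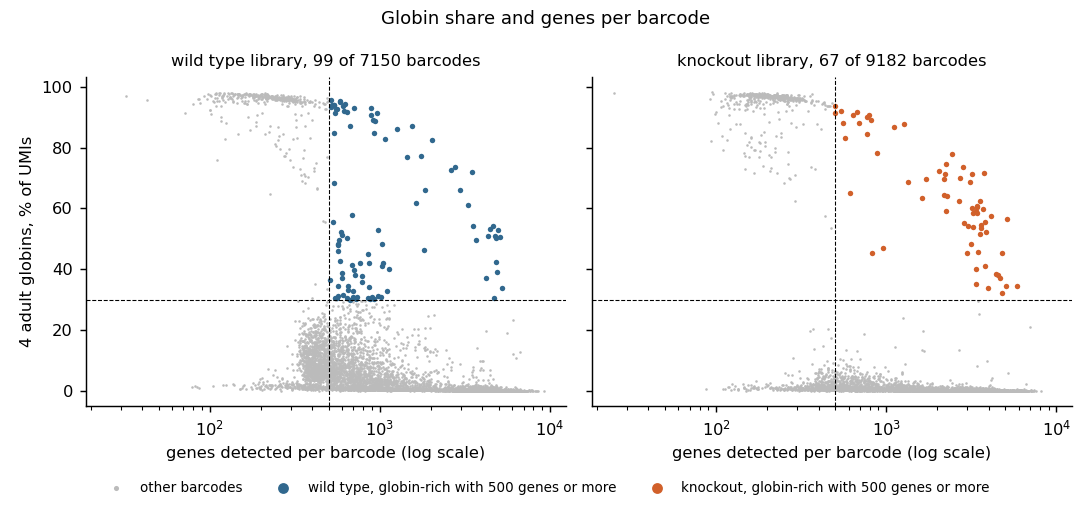
Each point is 1 deposited barcode, with the genes detected on a log scale and the share of its UMIs held by the 4 adult globins. Colored points are the 99 wild-type and 67 knockout barcodes of the rule, dashed lines mark 500 genes and 30% globin, and the dense grey band at the upper left is the low-gene set of 379 and 484 barcodes.

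The globin threshold cut through a continuous range in the wild-type library and fell in a sparse one in the knockout library. Between 20 and 30% globin there were 114 wild-type and 4 knockout barcodes with 500 genes or more, and between 10 and 20% there were 354 and 11. For the wild-type and knockout libraries in turn, the lowest globin share inside the rule was 30% and 32.0%, and the 5th lowest was 30.4% and 35%. Just outside, the highest share was 29.9% and 29.5%, and the 5th highest was 29.5% and 19.8%. On the gene axis the lowest counts inside were 506 and 500 genes (5th lowest 530 and 576), and the highest outside were 494 and 481 (5th highest 486 and 455). The highest mitochondrial share of a chosen barcode was 13.3% and 11.6%, so that limit decided none of them.

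Depth differed strongly between the chosen barcodes of the 2 libraries. Wild-type barcodes held 1003 to 68071 UMIs with a median of 6308, and knockout barcodes 2752 to 45245 with a median of 20925. Besides globin the medians were 1417 and 7987 UMIs, and the median numbers of genes were 790 and 2981. A shallow group of 41 wild-type barcodes had fewer than 2500 UMIs, a depth at which the knockout library had 0. Without them the shares were 1.13% and 0.896%, a log2 ratio of -0.33 (-0.86 to 0.20), in an alternative chosen after these depths were seen. This cut was applied to the globin-rich barcodes only. The totals of 5152 and 7480 still held 1472 wild-type and 1087 knockout barcodes outside the rule with fewer than 2500 UMIs, so depth was not matched. Globin held 70.3% of the summed UMIs in the wild-type library and 60.6% in the knockout library.

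Over the whole series the wild-type library held 7150 barcodes and 57166105 UMIs, and the knockout library 9182 barcodes and 75473717 UMIs. The limits removed 27.9% and 18.5% of barcodes. The libraries shared 17 barcode sequences, of which 2 were chosen wild-type barcodes and 0 were chosen knockout barcodes. The targeted gene, listed under its current symbol Dipk1c, was detected in both libraries, at 28.9 CPM of all UMIs over the wild-type barcodes and 18.7 CPM over the knockout barcodes. Within the globin-rich barcodes it had 12 and 10 UMIs, in 9 of 99 and 9 of 67 barcodes, and since the deleted part is not stated these 3' tags do not check the genotype. Outside the rule, globin still held 0.658% of the UMIs of the wild-type and 0.190% of those of the knockout barcodes, and at least 1 globin UMI was present in 99.98% and 99.88% of them.

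Erythroid transcripts other than globin marked these barcodes, but brain-cell transcripts did not leave them. Levels are UMIs scaled to a total of 1000000 UMIs other than the 4 globins (CPM). Alas2 stood at 3679 CPM (3496 to 3869) in wild-type and 2270 CPM (2147 to 2399) in knockout globin-rich barcodes, beside 8.19 and 2.03 CPM in the remaining barcodes that passed the limits. It had a UMI in 82 of 99 (82.8%) and 67 of 67 chosen barcodes, and in 5.68% and 1.2% of the rest. Markers of astrocytes, oligodendrocytes, microglia, endothelium, and neuroblasts and neurons were counted together as 5 brain lists, leaving out the endothelial list gene Bsg. These lists held 3.49% and 3.87% of the UMIs besides globin, beside 4.04% and 3.93% in the rest. The nuclear noncoding RNA Malat1, chosen after its values were seen, held 8.93% and 10.1%, beside 10.2% and 10.1% in the rest. The globin content was set by the rule and says nothing about the label erythroid cells. The Alas2 level fits that label, but Alas2 also followed globin outside the rule. Per 100000 globin UMIs it was at 156 and 148 in the chosen barcodes and at 124 and 107 in the rest, so Alas2 alone does not decide the label. The brain markers go against the label, and the barcodes are called globin-rich here. The part of these brain transcripts, and of depth, in the differences below was not tested.

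The makeup followed the globin share. The 5 lists of erythroid genes for heme synthesis, membrane, transcription, maturation and metabolism held 1.31% (wild type) and 1.33% (knockout) of the UMIs besides globin in barcodes with 30 to 50% globin, and 2.62% and 2.34% at 50 to 80%. At 80% globin or more they held 16.5% and 9.03%, and in the low-gene set 25.5% and 23.0%, against 0.607% and 0.630% in the rest of the barcodes. The 5 brain lists held 3.45% and 4.54% at 30 to 50%, 3.89% and 3.55% at 50 to 80%, 2.07% and 1.73% at 80% or more, and 1.10% and 1.36% in the low-gene set. Malat1 held 3.29% and 5.50% at 80% globin or more and 1.07% and 1.10% in the low-gene set. The 2 libraries filled these ranges unequally, with 48, 24 and 27 wild-type and 16, 37 and 14 knockout barcodes from low to high globin. Depth moved with this as well, since the wild-type barcodes at 30 to 50% globin had a median of 1705 UMIs and the knockout ones 21052. Alas2 was seen in 33 of 48 wild-type (68.8%) and 16 of 16 knockout barcodes of that range.

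**Figure D2:**
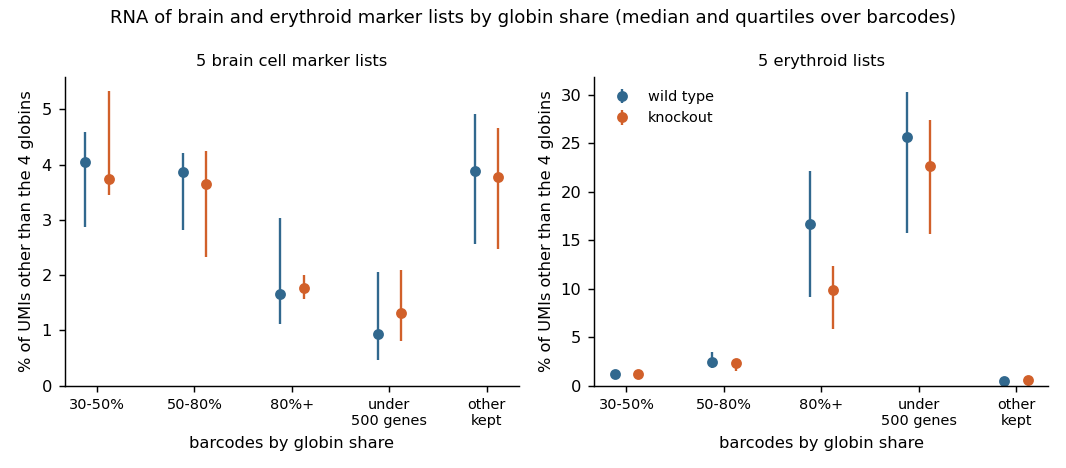
Points are the median over barcodes and bars the quartiles of the share of UMIs besides globin held by 5 brain cell lists (left) and 5 erythroid lists (right), by library and globin share. Medians of the erythroid lists are highest, and those of the brain lists lowest, at 80% globin or more and in barcodes under 500 genes.

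The split between the alpha globin copies differed between the libraries, while the other balances were close. Summed over the chosen barcodes the wild-type library held 452746 Hbb-bs, 98128 Hbb-bt, 236536 Hba-a1 and 185905 Hba-a2 UMIs. The knockout library held 416677, 85436, 247829 and 106618 in the same order. Alpha globin made up 43.4% (43.3 to 43.5%) and 41.4% (41.3 to 41.5%) of globin UMIs. Hbb-bt, which differs from Hbb-bs at 1 of 441 coding bases, made up 17.8% and 17.0% of beta. Hba-a2 made up 44.0% (43.9 to 44.2%) of alpha UMIs in the wild-type library and 30.1% (29.9 to 30.2%) in the knockout library. The low-gene set gave 44.2% and 29.3%, and the globin UMIs of all other barcodes 44.7% and 29.9%. The difference was thus about as large in barcodes that the rule did not take.

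In the knockout library the lower mean came from barcodes that fell into 3 ranges with few barcodes between them. Among the 99 wild-type barcodes, Hba-a2 ran from 22.0% to 50.9% of alpha with a median of 44.0%, and all but 1 were at 35% or more. Among the 67 knockout barcodes it ran from 0.634% to 49.7% with a median of 27.2%. There, 8 barcodes were under 12% (0.634 to 5.15%), 32 lay between 12.6% and 34.2%, and 27 lay between 36.6% and 49.7%. The low-gene set repeated the ranges, with 65, 229 and 190 knockout barcodes (13.4%, 47.3% and 39.3%) and all 379 wild-type barcodes between 36.0% and 50.4%. The upper knockout range overlapped the wild-type values, and the 2 lower ranges, apart from 1 wild-type barcode, did not. In steps of 5 percentage points, the knockout low-gene set held 147 barcodes at 20 to 25%, 3 at 30 to 35%, 7 at 35 to 40% and 114 at 45 to 50%. The 12% and 35% bounds were set after these values were seen.

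Counting error was small beside this spread. The median standard error of counting for 1 barcode's Hba-a2 share was 1.21 percentage points for wild-type and 0.630 for knockout barcodes, against SDs over barcodes of 3.77 and 14.1. The knockout ranges were close in some measures and apart in others. From the lowest to the highest range alpha globin was 42.1%, 41.4% and 41.2% of globin, and Alas2 was 141, 148 and 150 UMIs per 100000 globin UMIs. Over the same ranges the median globin share of a barcode was 78.3%, 64.1% and 54.5%, and the median Hbb-bt share of beta was 12.6%, 17.1% and 17.5%. In the low-gene set the median globin shares were 96.3%, 96.6% and 96.3% and the median Hbb-bt shares 16.7%, 15.7% and 16.9%. Summed over each range, Hba-a2 was 3.69%, 25.3% and 44.7% of alpha, beside 3.76%, 24.0% and 45.9% in the low-gene set. The files do not link a barcode to an animal of the pool. The split is also uncertain as a measure, because in GENCODE M21 the 2 genes differ at 1 of 426 coding bases and at 0 of the 74 bases compared after the stop codon, and reads that fit both copies may be counted for neither.

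**Figure D3:**
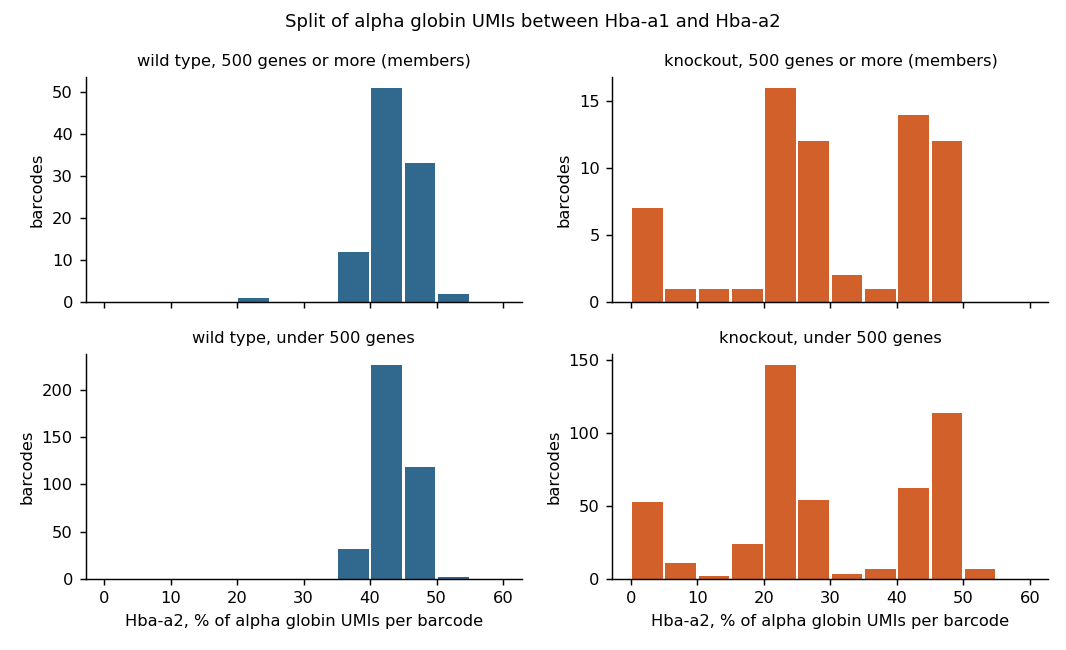
Histograms of the Hba-a2 share of alpha globin UMIs per barcode, in steps of 5 percentage points, for the wild-type (left) and knockout (right) library. The upper panels hold the 99 and 67 barcodes with 500 genes or more and the lower panels the 379 and 484 with fewer, and the knockout panels show 3 heaps where the wild-type panels show 1.

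Many of the genes most raised over the other barcodes were members of the erythroid lists. Of 3526 genes with at least 20 UMIs in the chosen barcodes of each library, 54 (1.53%) were more than 2-fold above the remaining barcodes in both libraries, with 50 CPM added to each side. Since the globin rule chose the barcodes, this count is a description. Among the 20 highest were Alas2, Ube2l6, Bpgm, Tent5c, Mkrn1, Isg20, Slc25a37, Epb41, Rsad2, Fech, Cd24a, Apol11b, Ube2o, Gpx1, Sec61g, Slc25a39, Bnip3l and Isca1. Of the erythroid list genes with enough UMIs, 25 of 52 were in that count. By list, 12 of 14 maturation genes, 4 of 9 iron genes, 2 of 6 heme genes, 2 of 3 membrane genes, 2 of 5 surface genes, 3 of 12 metabolism genes and 0 of 3 transcription factor genes were.

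Between the libraries, erythroid genes stood lower in the knockout library as a share of the UMIs besides globin, and closer to equal per globin UMI. Of 3515 genes with at least 50 UMIs over both libraries' chosen barcodes, 32 (0.91%) were past 2-fold higher and 65 (1.85%) past 2-fold lower in the knockout library, with 50 CPM added. Among 54 measured genes of 7 erythroid lists, 1 was past 2-fold higher and 11 lower, and 45 were below 0 with a median log2 ratio of -0.64. Over all 3515 genes, 1678 were below 0 and the median was 0.016. With nothing added, the erythroid median was -0.82, again with 45 of 54 below 0, and the median over all genes 0.022. Scaling to globin UMIs moves every ratio with nothing added up by 0.62, to an erythroid median of -0.20 with 35 of 54 below 0 and a median over all genes of 0.64. Under globin scaling, with 50 CPM added on that scale, 74 genes were past 2-fold higher and 18 lower, and with globin included in the total 21 and 11, so the split of higher and lower calls turned with the scale. In the rest of the Results, list medians have 50 CPM added unless stated. Ratios of single genes and all values per globin UMI there have nothing added. The libraries also differed in how many barcodes lay at high globin, as given above, and the part of this in the ratios was not tested.

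Genes of heme synthesis were led by Alas2 and Fech, the enzyme that puts iron into the heme ring. Per barcode, Alas2 ran from 0 to 37056 CPM with a median of 1625 in the wild-type library and from 245 to 22892 CPM with a median of 2540 in the knockout library. The medians and the summed levels thus ordered the libraries in opposite ways, and the values overlapped almost fully. The summed log2 ratio was -0.70 (-0.81 to -0.59) and the ratio per globin UMI was -0.07 (-0.18 to 0.034), from 156 and 148 Alas2 UMIs per 100000 globin UMIs. In ranges of 30 to 50%, 50 to 80% and 80% or more globin, the per-globin ratios were 0.15, 0.0034 and -0.34, and -0.19 in the low-gene set. Fech stood at 804 and 397 CPM, a log2 ratio of -1.02 (-1.27 to -0.77). Its medians per barcode, 263 and 423 CPM, were again ordered opposite to the sums. From low to high globin range its log2 ratios were -0.86, 0.0077 and -0.93. Cpox, which acts earlier in the pathway, was the 1 gene past 2-fold higher, with 28 UMIs (68.0 CPM) against 125 (224 CPM). Of those 125, 112 lay in the 16 knockout barcodes with 30 to 50% globin. In that range Cpox stood at 58.1 CPM in wild-type and 510 CPM in knockout barcodes, beside 118 and 115 CPM outside the rule. The source of this difference was not tested. The other measured heme genes, Urod and Tmem14c among them, gave ratios inside 2-fold with 50 CPM added.

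Of 9 measured iron genes, 7 were below 0, 1 was past 2-fold lower and 0 higher, and 5 were below 0 per globin UMI. Slc25a37 (mitoferrin), which carries iron into mitochondria, stood at 1460 and 689 CPM (log2 -1.08, -1.27 to -0.90). Ftl1, the ferritin light chain, stood at 3487 and 2498 CPM (log2 -0.48) and at 0.14 per globin UMI. Fth1, the ferritin heavy chain, was at 6427 and 7230 CPM, close to its 5303 and 6188 CPM in the other barcodes, and 21.3% of its knockout UMIs came from 1 barcode. Its direction turned with the choice of barcodes. In barcodes with 30 to 50% globin its log2 ratio was 1.16, at 50 to 80% it was -0.61 and at 80% or more -0.60. Tfrc, the transferrin receptor of younger erythroid cells, was at 177 and 96.9 CPM, beside 122 and 99.9 CPM outside the rule.

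Membrane skeleton genes had the lowest median of the 7 erythroid lists, -1.34, with 3 of 5 measured genes past 2-fold lower. With nothing added the median was -1.67, and per globin UMI it was -1.05. Epb41 (protein 4.1), which helps hold the skeleton to the membrane, stood at 1422 and 488 CPM. Per barcode it ran from 0 to 18538 CPM with a median of 693 in the wild-type library and from 0 to 3713 CPM with a median of 490 in the knockout library. The log2 ratio of the sums was -1.54 (-1.76 to -1.33) and that per globin UMI -0.92. It was below 0 in each globin range, at -1.0, -0.70 and -1.48 per globin UMI, and at -0.81 in the low-gene set. Slc4a1 (band 3), the anion exchanger of the red cell membrane, had 97 and 35 UMIs (236 and 62.8 CPM, log2 -1.91, -2.51 to -1.34). Tmcc2 had 79 and 18 UMIs, but 63.3% of the wild-type ones came from 1 barcode. Outside the rule Slc4a1 was under 1 CPM in both libraries.

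Surface genes had values in both directions. Cd24a, a surface antigen of immature blood cells, stood at 722 and 540 CPM and was past 2-fold above the other barcodes in both libraries. Its medians per barcode, 188 and 368 CPM, were ordered opposite to the sums. Bsg (basigin) and Slc2a1 (the glucose transporter GLUT1) were higher in the knockout barcodes, at 578 and 1163 CPM and at 141 and 240 CPM. Both are also abundant in brain endothelium, and 26.4% and 26.1% of their knockout UMIs came from 1 barcode. Of the list's 6 measured genes, 2 were below 0, 0 were past 2-fold higher and 1 was past 2-fold lower, and the list median was 0.20.

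The maturation list, with genes of autophagy and ubiquitin that clear organelles and proteins from the reticulocyte, had all 14 measured genes below 0 and 5 past 2-fold lower. Its median was -0.81, or -0.84 with nothing added, and -0.22 per globin UMI. Tent5c, a poly(A) polymerase, was at 1869 and 628 CPM, a log2 ratio of -1.57 (-1.76 to -1.39), and at -0.95 (-1.14 to -0.77) per globin UMI. By globin range its per-globin ratio was -0.15, -0.90 and -1.58 from low to high, and -0.99 (-1.08 to -0.91) in the low-gene set with 3139 and 1649 UMIs. Ube2o, which tags proteins for removal in reticulocytes, was at 651 and 249 CPM and at -0.76 per globin UMI, beside -0.68 in the low-gene set. Mkrn1, a RING-finger ubiquitin ligase, was at 2765 and 1326 CPM and at -0.44 per globin UMI, but at -0.03 in the low-gene set. Bnip3l (NIX), which removes mitochondria, was at 1876 and 1001 CPM and at -0.28. Ube2l6 and Isg20 were at -0.15 and -0.08 per globin UMI, and in the low-gene set Ube2l6 had 64.3 UMIs per 100000 globin UMIs in both libraries. Xpo7 and Trim10 were also past 2-fold lower, with 83 and 29 and with 81 and 39 UMIs, and 80.7% of the wild-type Xpo7 UMIs came from 1 barcode. Medians per barcode were higher in the knockout library, opposite to the sums, for Ube2o (125 and 277 CPM), Mkrn1 (1307 and 1397), Ube2l6 (951 and 1130) and Isg20 (224 and 569). Tent5c (794 and 726) and Bnip3l (1126 and 888) had lower medians there.

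Among metabolism genes, 1 of 12 was past 2-fold lower and 0 higher, with a list median of -0.77. Bpgm, which makes the 2,3-bisphosphoglycerate that lowers the oxygen affinity of hemoglobin, stood at 3502 and 2166 CPM and at -0.07 (-0.18 to 0.04) per globin UMI. Its per-barcode medians were 1632 and 2116 CPM, again ordered opposite to the sums. Gpx1 (glutathione peroxidase 1) was at 1827 and 764 CPM, a log2 ratio of -1.26 (-1.43 to -1.08), and at -0.64 per globin UMI and -0.56 in the low-gene set. Prdx2 (peroxiredoxin 2) was at 1278 and 809 CPM and at -0.04 per globin UMI. Car2, a carbonic anhydrase of red cells and of oligodendrocytes, was at 2360 and 1283 CPM, beside 1234 and 909 CPM outside the rule. Car1 had 0 UMIs in the chosen barcodes of both libraries.

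The 20 genes most raised over other barcodes can be read together on both scales. All 20 had a log2 ratio below 0 per UMI besides globin, with a median of -1.0, and 18 of 20 were below 0 per globin UMI, with a median of -0.38. For 13 of them the per-globin interval lay wholly below 0, and for 0 wholly above. Over all 3515 measured genes, 1678 were below 0 per UMI besides globin, and the median per globin UMI was 0.64. Counts over all genes per globin UMI and within globin ranges are not given here. At 50 to 80% globin, where the libraries had 24 and 37 barcodes, 10 of 20 were below 0 per UMI besides globin and 16 of 20 per globin UMI, with medians of -0.03 and -0.21. The median depth in that range was 25722 and 24289 UMIs, but the lower quartile was 2922.5 and 17787, and 6 wild-type and 0 knockout barcodes were under 2500 UMIs. In the low-gene set these counts were 15 and 19, with medians of -0.23 and -0.35. These sets come from the same 2 libraries and are not independent. The gene Pabpc1, chosen after its values were seen and a binder of poly(A) tails, stood at 1976 and 630 CPM, -1.03 per globin UMI and -1.08 in the low-gene set. It was the 1 of 16 measured genes of a stress granule list past 2-fold in either direction, and the median of that list was -0.21.

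**Figure D4:**
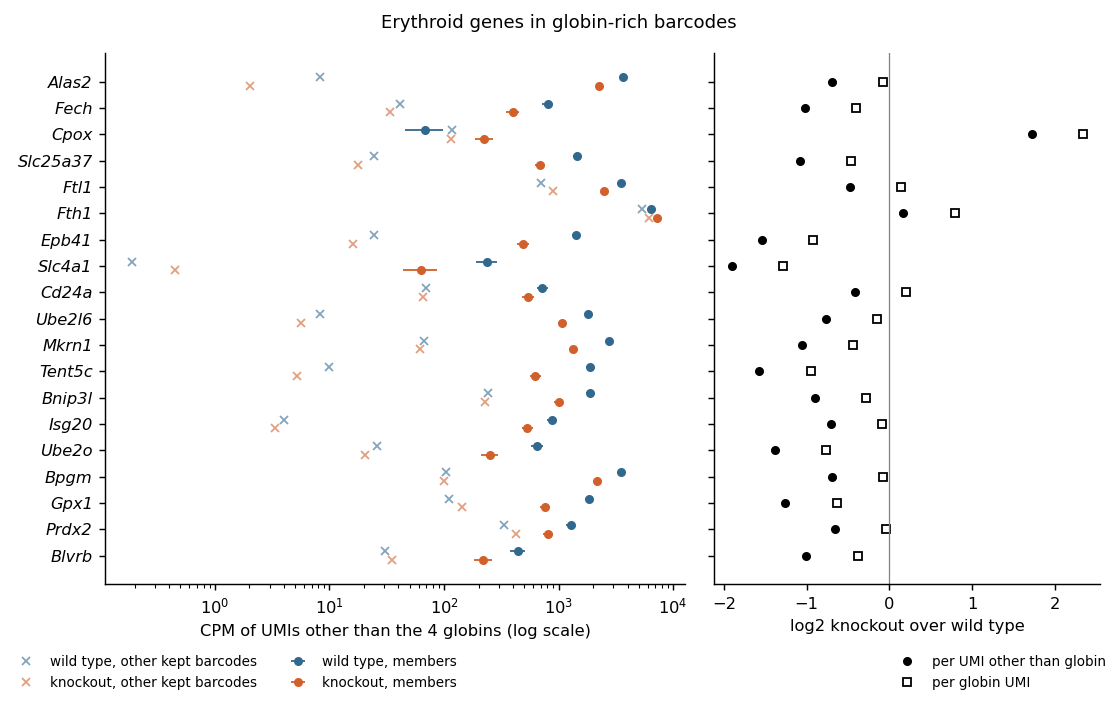
Left, summed levels of 19 erythroid genes in the globin-rich barcodes (points, with 95% counting intervals) and in the other barcodes that passed the limits (crosses), in CPM of UMIs besides globin on a log scale. Right, the log2 ratio of knockout over wild type per UMI besides globin (filled) and per globin UMI (open), on which Alas2 and Bpgm sit at -0.07 and Tent5c and Epb41 at -0.95 and -0.92.

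Rsad2 and Isg15, both known to be induced by interferon, were named by the ratios and belong to none of the lists. Rsad2 (viperin) was at 1132 and 386 CPM, beside 10.0 and 6.96 CPM outside the rule, with UMIs in 47 of 99 and 37 of 67 barcodes. Medians per barcode were 0 and 115 CPM, opposite in order to the sums. The per-globin log2 ratio of Rsad2 was -0.93 over all chosen barcodes, -0.25 (-0.60 to 0.10) at 50 to 80% globin, -1.88 (-2.48 to -1.33) at 80% or more and -0.55 in the low-gene set. Isg15, a ubiquitin-like modifier, was 1 of the 12 lowest ratios, at 544 and 111 CPM. There, 40.2% of the 224 wild-type UMIs came from 1 barcode. Its per-globin ratio was -1.67 (-2.10 to -1.26) over all chosen barcodes, 0.37 (-0.54 to 1.36) at 50 to 80% globin, -1.75 (-2.51 to -1.07) at 80% or more and -0.23 in the low-gene set. Both had 9 to 14 UMIs in each library at 30 to 50% globin.

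Lists of younger erythroid stages held few UMIs. The 10 early progenitor genes had 94 and 95 UMIs, or 0.0228% and 0.0170% of those besides globin, beside 0.0156% and 0.0129% outside the rule, and Tfrc made up 73 and 54 of them. The 11 erythroid transcription factor genes had 138 and 120 UMIs (0.0335% and 0.0215%, beside 0.0203% and 0.0179%). Of these, Lmo2, a partner of the GATA factors, had 43 and 31 UMIs, at 104 and 55.6 CPM beside 22.9 and 17.0 CPM outside the rule. Gata1 and Gfi1b, which drive erythroid differentiation, had 0 UMIs in both libraries, a count that allows up to 7.29 CPM in the wild-type and 5.38 CPM over the knockout barcodes. Klf1 had 1 and 3 UMIs, Tal1 and Epor 0 and 2 each, Kit 2 and 0, and Myb 0 and 0. Of the embryonic and minor globins, Hbb-bh1, Hbb-bh2, Hbb-y and Hba-x had 0 UMIs in both libraries. The theta-like genes Hbq1b and Hbq1a had 23 and 10 and 17 and 12 UMIs. Of the cell cycle list, Ube2c was seen in 43 and 34 barcodes with 172 and 208 UMIs. Mki67 and Top2a, which mark dividing cells, were seen in 2 and 2 and in 5 and 5 barcodes, and 1 barcode held 88.9% and 95.3% of the Top2a UMIs.

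Many of the genes with the largest ratios between the libraries drew their UMIs from single barcodes. Of the 32 genes past 2-fold higher in the knockout library, 20 drew more than 50% of their knockout UMIs from 1 barcode, and of the 65 lower genes 24 drew more than 50% of their wild-type UMIs from 1. Marker lists of other cell types held 6 of the 32 and 11 of the 65, and the erythroid lists 1 and 11. For single barcodes and the lists of other cell types, the same counts over all measured genes are not given here. Whether the genes past 2-fold differ from the rest in these respects was not tested. The 12 highest were Ly6c1, Vtn, Cxcl12, Flt1, 9630013A20Rik, Rgs5, Enpp6, Cldn5, Ly6a, Spock2, Igfbp7 and Ptprb, with endothelial genes such as the VEGF receptor Flt1 (15 and 179 UMIs) and the tight junction gene Cldn5 (12 and 105). The largest single barcode held 37.7 to 100% of their knockout UMIs. Vtn had 0 and 101 UMIs, at least 24.9-fold higher than the level of 3 wild-type UMIs, and 99.0% of the 101 lay in 1 barcode. Among the 12 lowest were Lyz2, S100a9, S100a8, Il1b, Cebpb, C1qa, Junb, Isg15, Atf3, Ctss and Hist1h2ae, of which S100a8 and S100a9 are on the neutrophil list and C1qa and Ctss on the microglial list. Lyz2 (lysozyme) had 466 and 17 UMIs and S100a9 (calgranulin B) 500 and 41, and 1 wild-type barcode held 95.7% and 93.0% of theirs.

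Summed by list, markers of other cell types were spread unequally over barcodes. Neutrophil genes held 0.217% and 0.0176% of the UMIs besides globin, beside 0.223% and 0.416% outside the rule. They reached 1% in 1 barcode of each library, and 91.9% of the wild-type UMIs lay in 1 barcode. Camp and Ltf were at 0 in both libraries. Endothelial genes held 0.0734% and 0.220%, beside 0.133% and 0.122% outside the rule, and reached 1% in 3 and 5 barcodes. These values include Bsg, which is also on the erythroid surface list and whose levels are given above. Microglial genes held 0.157% and 0.0248%, beside 0.186% and 0.159% outside the rule, and reached 1% in 7 and 2 barcodes. Astrocyte genes held 2.00% and 2.46%, beside 2.25% and 2.37%, and reached 1% in 67 of 99 and 44 of 67 barcodes. Oligodendrocyte genes held 1.26% and 1.2%, beside 1.45% and 1.27% outside the rule, and reached 1% in 27 and 7 barcodes. The 8 markers of macrophages that take up red cells had 80 and 102 UMIs (0.0194% and 0.0183%, beside 0.0169% and 0.0156% outside the rule). Of these, 70 and 87 were of Vcam1, which endothelium also makes, and Cd163, Spic and Ms4a7 had 0 in both libraries. Among platelet genes Ppbp and Treml1 were at 0 in both.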

How the data were processed

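UMIs of 1 wild-type and 1 knockout library were analysed. The authors deposited whole UMI counts for each gene in each called barcode, without normalization. The submitters' processing notes list Cell Ranger 4.0.0, mm10, Seurat 3.0 and R 4.0.3. No annotation release is named in these notes or the headers. Of 32285 gene identifiers, 99.8% matched GENCODE M21.

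Members, gene lists and markers were chosen with earlier results of these data known. Barcodes needed 500 genes, at most 20% mitochondrial UMIs and 30% or more of their UMIs in the 4 adult globins. Counts were summed over these barcodes per library and scaled to the UMIs besides globin, since globin chose them. Shares have exact Clopper-Pearson intervals, levels exact Poisson intervals and ratios exact conditional binomial intervals, all at 95% and for counting error only. A count of 0 is read as up to 3 UMIs. No test was made, as each genotype had 1 library. A gene was counted as past 2-fold with 50 CPM added and 50 UMIs over both libraries, and the calculation was tested on simulated counts.

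Genes named are those of the erythroid lists, the 20 most raised over other kept barcodes (50 CPM added, 20 UMIs in each library), and the 12 highest and 12 lowest library ratios. Some of these genes are not reported here by name. Other genes are said to be chosen after their values were seen. Hbb-bh0 and Ahsp are not analysed here, and of the identifiers listed as Aldoa the first was used. Doublets were not removed. Scrublet in scanpy 1.11.5 marked 0 and 4 barcodes automatically and was taken as having failed, so an alternative removed the highest scores at 0.8% per 1000 barcodes. Promoters came from RefSeq. Python 3.11.15, numpy 2.4.6, pandas 2.3.3, scipy 1.17.1 and matplotlib 3.10.9 were used.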

Additional observations from a re-analysis of the deposited data

How the results depend on the processing

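No paired analysis was possible because each genotype has 1 library, which share only the number 1. All values are knockout over wild type, and the cause of each shift was not tested. Unless stated, list values in this section are log2 ratios of the summed UMIs of a list, with nothing added. They are not the list medians given above. Ratios of single genes in this section have 50 CPM added, also per globin UMI. The alternatives with no minimum on genes, with barcodes of 2500 UMIs or more and with scaling to globin UMIs were chosen after seeing the data.

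The log2 ratio of the shares, -1.10, was -0.31 with a minimum of 200 genes, -0.19 with 1000 genes, -0.13 with no minimum, -2.12 at 20% globin or more and -0.54 at 50% or more. It was -0.33 with globin-rich barcodes of 2500 UMIs or more, over unchanged totals. It stayed inside its counting interval under the limits on mitochondrial UMIs, at 70% globin, without the highest Scrublet scores, without barcodes found in both libraries and with 500 UMIs besides globin.

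The 32 genes past 2-fold higher became 21 at 50% globin or more, 21 with globin in the total, 21 with each barcode weighed the same, 74 per globin UMI, 69 with 10 CPM added, 13 with 100 CPM added and 4 with each barcode thinned to 600 UMIs, where 264 genes had enough UMIs. The 65 lower became 42 with 200 genes, 33 with 1000 genes, 40 at 20% globin or more, 100 at 70% or more, 103 without the highest Scrublet scores (11 knockout and 0 wild-type barcodes removed), 11 with globin in the total, 18 per globin UMI, 117 with 10 CPM added, 39 with 100 CPM added and 18 when thinned. In the 9 and 5 barcodes with the 5 brain lists under 1%, they were 29 and 82, out of only 301 genes with enough UMIs. Such genes numbered 3515 in the main setting, 3941 with 200 genes, 3216 with 1000 genes and 4334 at 20% globin. They numbered 1973 at 50% globin, 440 at 70% and 3049 without the highest Scrublet scores, so these counts are not shares of the same total.

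The log2 ratio of the Hba-a2 share of alpha, -0.55, was -0.58 with 200 genes, -0.46 with 1000 genes, -0.59 at 50% globin, -0.72 at 70%, -0.59 without the highest Scrublet scores and -0.70 as a median over barcodes. It was below 0 under every alternative run.

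The heme synthesis list, at -0.62, was -0.50 with 200 genes, -0.0092 with 1000 genes, -0.35 at 20% globin, -0.83 at 50%, -1.16 at 70%, -0.72 with 2500 UMIs, -0.21 with globin in the total, 0.0019 per globin UMI and -0.48 when thinned. The astrocyte list, at 0.30, was 0.42 with 200 genes, 0.23 at 20% globin, 0.36 at 50%, 0.78 at 70%, 0.59 without the highest Scrublet scores, 0.36 without shared barcodes and 0.43 as a median.

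Of other lists, the summed iron list, at -0.17, turned to 0.074 with 1000 genes, 0.24 with globin in the total and 0.45 per globin UMI. The summed oligodendrocyte list, at -0.064, turned to 0.043 with 200 genes. Of 50 single genes, Cd24a turned to 0.19 with 1000 genes, 0.18 per globin UMI, 0.13 with equal weights and 0.12 when thinned. Sec61g turned to 0.045, 0.095 and 0.0032 with 1000 genes, per globin UMI and when thinned, Isg20 to 0.14 with 1000 genes, and Ftl1 to 0.14 per globin UMI. S100a9 and S100a8 turned to 1.47 and 1.54 at 20% globin. Fth1 turned to -0.75 at 50% globin, -1.01 at 70%, -0.85 without the highest Scrublet scores, -0.65 with brain lists under 1%, -0.26 with equal weights and -0.43 when thinned.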

Other observations

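A small set of globin-rich barcodes was poor in Hbb-bt, the beta globin gene with fewer UMIs. These values were noticed after the data were seen, and no explanation was tested. Hbb-bt held under 8% of beta globin in 41 wild-type (10.8%) and 49 knockout (10.1%) barcodes of the low-gene set, and in 1 and 7 of the barcodes with 500 genes or more. In the low-gene set their median Hbb-bt share was 3.17% and 3.30%, beside 17.7% and 16.9% in the rest. They were shallower, with medians of 3907 and 4566 UMIs beside 17323 and 13670, and had 113 and 143 genes beside 240.5 and 219. Alas2 was at 118 and 125 per 100000 globin UMIs beside 148 and 129. The Hba-a2 share of alpha in the set was 41.5% for wild-type and 22.6% for knockout barcodes.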
